A study of Mus musculus with 6 samples.

Results

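The mesenchymal cells of mouse prostate tumours were the cells that carry the class name Mesenchymal in the deposited table of cells. They numbered 241 of 5749 cells, and the proliferating cancer cells, the class set beside them here, numbered 140. The tumours came from PPS-ICBR, a prostate cancer line that resists immune checkpoint blockade, in C57Bl6 mice, and their RNA was counted cell by cell in droplets. The mesenchymal cells came from 4 groups of 3 tumours each. They numbered 11 in tumours of mice on a butanediol diet (BD) and 144 in tumours of mice on a standard diet (SD), all without blockade. They numbered 16 in tumours of mice on the butanediol diet with blockade (BD+ICB) and 70 in tumours of mice on blockade alone (ICB), where blockade was a 0.2 mg dose directed at PD-1 and CTLA-4. All 4 groups shared the cell line, the mouse strain and the handling, in which the cells were taken from the leukocyte layer of a Percoll gradient. Shares of cells are therefore shares of that layer. The deposited matrices count UMIs (unique molecular identifiers, which mark single RNA molecules) also for the fluorescent reporters tdTomato and EGFP, and the labels do not say which cells carry them.

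Mesenchymal cells of a tumour build the matrix: fibroblasts secrete fibrillar collagens, crosslink them with lysyl oxidases, and answer to platelet-derived growth factor and TGF-beta. Prostate cancer cells normally keep epithelial traits such as keratins 8 and 18, but can lose cell adhesion genes and gain vimentin and matrix genes. Ketone bodies from butanediol can be burned by cells that have the transferase Oxct1, and they inhibit some histone deacetylases.

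BD and SD tumours shared a library, and BD+ICB and ICB tumours shared the other, so blockade and library cannot be told apart. Diet was tied to the hashtag set and to tumour size, since BD tumours were listed with sizes of 172 to 203 against 870 to 2348 for SD, and BD+ICB tumours with 23 to 90 against 289 to 1116 for ICB, in a unit that was not stated. Mesenchymal cells had median totals per tumour of 28725 to 62939 UMIs in ICB tumours and 8959 to 10635 in SD tumours. Their summed totals ran from 13940 UMIs in BD replicate 2 to 1833497 in ICB replicate 1. Of the 1931 cell barcodes found in both libraries, 47 belonged to mesenchymal cells, and 1 of these cells was the shallower copy. Levels below are CPM, the UMIs of a gene scaled to a fixed total, of the UMIs summed over the mesenchymal cells of a tumour, given for tumours with at least 10 such cells, which are the 3 ICB and the 3 SD tumours.

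The defining markers of the class were present. Col1a1, Col3a1 and Sparc, which make and bind fibrillar collagen, averaged 1830, 2820 and 1760 CPM in mesenchymal cells, against 519, 823 and 594 CPM in proliferating cancer cells (means over 6 and 7 tumours). Dcn, a small proteoglycan of collagen fibrils, averaged 2140 CPM in mesenchymal cells and 1550 CPM in proliferating cancer cells. Acta2, the smooth muscle actin of contractile fibroblasts, averaged 550 CPM in mesenchymal cells and 208 CPM in proliferating cancer cells. For each of these 5 genes mesenchymal cells ranked first of the classes and proliferating cancer cells next. The cells were clustered on these genes, so this is a description without a test.

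The 5 markers were not confined to mesenchymal cells, and proliferating cancer cells held them above leukocytes. Over the pooled leukocytes of 12 tumours, Col1a1 ran from 47.5 to 87.2 CPM and Dcn from 33.7 to 66.6 CPM. With each cell thinned to 2000 UMIs, Dcn was found in 80.0% of mesenchymal cells, 76.2% of proliferating cancer cells and 19.5% of Cxcr2+ neutrophils of the BD and SD library. Thinning left out 5 shallower mesenchymal cells, 0 proliferating cancer cells and 150 of these neutrophils there. The neutrophils should lack Dcn, so their share is read as a background level, whose source was not tested. Their median depth before thinning was 2046.5 UMIs, against 9117 in mesenchymal cells and 68609.5 in proliferating cancer cells, and the shares without thinning were 92.9% in mesenchymal cells, 100% in proliferating cancer cells and 19.1% in neutrophils. In the BD+ICB and ICB library the thinned shares were 82.1% in mesenchymal cells, 89.8% in proliferating cancer cells and 25.8% in neutrophils. There 2, 0 and 142 shallower cells were left out, and proliferating cancer cells had the highest share.

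Tumour cell features stood in the same cells as the matrix genes. Krt8, a keratin of simple epithelium, stood at 1250, 731 and 951 CPM in mesenchymal cells of ICB tumours and at 1060, 570 and 1060 CPM in those of SD tumours. In proliferating cancer cells it was at 983, 853 and 1090 CPM in the ICB tumours and at 1090, 840 and 582 CPM in the SD tumours, where replicate 2 rests on 9 cells. The ranges of both classes overlapped, whereas the pooled leukocytes held 16 to 35.6 CPM. Krt8 and Dcn were found together in 56.0% of thinned mesenchymal cells, 54.8% of proliferating cancer cells and 1.22% of Cxcr2+ neutrophils of the BD and SD library. In the BD+ICB and ICB library these shares were 42.9% in mesenchymal cells, 68.4% in proliferating cancer cells and 2.22% in neutrophils. Without thinning they were 86.5%, 100% and 2.87% in the BD and SD library and 81.4%, 100% and 4.97% in the other, in the same order.

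Other genes also stood above leukocytes in both classes. Hoxb13, a prostate transcription factor, had a median of 17.6 CPM in mesenchymal cells, 15.1 CPM in proliferating cancer cells and 0.451 CPM in leukocytes. Cdkn2a, a tumour suppressor that restrains the cell cycle, had medians of 628 CPM in mesenchymal cells, 509 CPM in proliferating cancer cells and 11.9 CPM in leukocytes.

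Epithelial adhesion genes were scarce in mesenchymal cells. Epcam and Cdh1, the adhesion proteins of epithelial cells, had medians of 0.327 and 2.97 CPM in mesenchymal cells, and 7 of the 18 genes listed for prostate epithelium had no UMI there at all. Of this list 4 genes stood over 20 CPM in mesenchymal cells and 4 in proliferating cancer cells, so it did not set the classes apart. Vim, the intermediate filament of mesenchymal cells, ran from 3190 to 5420 CPM in mesenchymal cells and from 3940 to 6560 CPM in proliferating cancer cells. Twist1 and Zeb1, transcription factors that repress epithelial adhesion genes, had medians of 116 and 136 CPM in mesenchymal cells and of 109 and 103 CPM in proliferating cancer cells. Krt8 and the mesenchymal filament were therefore shared by both classes, with overlapping ranges.

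The reporter sequences followed the same division. tdTomato stood at 7.14 CPM in mesenchymal cells (58 UMIs, exact Poisson 95% interval 5.42 to 9.24), at 7.21 CPM in proliferating cancer cells (5.94 to 8.67) and at 0.0874 CPM in the 5368 leukocytes. EGFP stood at 4.06 CPM in mesenchymal cells, 3.64 CPM in proliferating cancer cells and 0.131 CPM in leukocytes. Intervals cover counting error only. Either reporter was seen in 21.2% of mesenchymal cells, 57.9% of proliferating cancer cells and 10 leukocytes, and the lower share in mesenchymal cells went with a lower depth. Per tumour, tdTomato ran from 5.45 to 11.3 CPM in mesenchymal cells of ICB tumours and from 1.36 to 8.28 CPM in those of SD tumours. Across 9709 to 10106 genes, the summed mesenchymal profile of a tumour was closest to that of its proliferating cancer cells in each of the 5 tumours with at least 10 cells of both classes (Spearman's rho 0.827 to 0.876). Genes are not independent replicates, and the profiles of a tumour share a library, so these are descriptions.

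Markers of other stromal cells stood at unequal levels. The 8 Schwann cell markers summed to 1.96 to 3.24 CPM in ICB and 4.14 to 8.73 CPM in SD mesenchymal cells, and the 5 red cell genes to 0 to 5.8 CPM. The 8 fat and muscle markers, 4 of them with no UMI, summed to 50.7, 30.7 and 47.0 CPM in ICB tumours and 50.6, 361 and 55.5 CPM in SD tumours, against 0.658 to 4.25 CPM in proliferating cancer cells. Nearly all of this was Fabp4, a fatty acid carrier of fat cells that endothelial cells and macrophages also make, at 361 CPM in SD replicate 2, while the fat cell gene Adipoq had no UMI. The 10 pericyte and smooth muscle markers summed to 100 to 233 CPM in ICB and 53.0 to 77.7 CPM in SD mesenchymal cells, against 23.1 to 48.1 CPM in proliferating cancer cells. The 10 endothelial markers summed to 21.1 to 241 CPM in ICB tumours and 38.4 to 67.1 CPM in SD tumours. In ICB replicate 1 the endothelial marker Pecam1 reached 62.2 CPM and the pericyte marker Rgs5 77.4 CPM, and Rgs5 was at most 2.72 CPM in the other 5 tumours. Fap, a protease of activated fibroblasts, ran from 0 to 12 CPM.

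Collagen was spread unevenly over the 241 cells. The 16 collagen genes took a median of 0.409% of the UMIs of a mesenchymal cell, with a highest value of 7.7%, against a median of 0.294% and a highest value of 2.5% in proliferating cancer cells. The 10 cells with the most Col1a1 held 45.2% of its UMIs in the class, whereas the 10 deepest cells held 15.8% of all UMIs. For Pi16, a gene of resident fibroblasts in normal connective tissue, the 10 highest cells held 96.3% of its UMIs. Krt8 was uneven as well, with 39.6% in 10 cells.

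A small set of cells had UMIs of at least 2 of the resident fibroblast genes Pi16, Lum, Col14a1 and Clec3b. It held 14 of 241 mesenchymal cells (5.81%), against 3 of 140 proliferating cancer cells (2.14%) and 3 of 817 Cxcr2+ neutrophils (0.367%), at median depths of 21886, 108624 and 2393 UMIs. Thinned to 2000 UMIs, these shares were 2.99% in mesenchymal cells, 0.0% in proliferating cancer cells, where 0 of 140 allows up to 2.14%, and 0.571% in neutrophils, with 7, 0 and 292 shallower cells left out. A UMI of Pi16 alone does not mark such cells, since thinned neutrophils had it in 9.15% of cells in the BD and SD library and 7.76% in the other, against 4.67% and 4.76% of mesenchymal cells. Of the 14 mesenchymal cells 2 came from BD+ICB, 5 from ICB and 7 from SD tumours, and the set was defined after these genes had been seen to be concentrated, so its differences are descriptions. These 14 cells had no reporter UMI among 432779, with an exact Poisson upper limit of 8.52 CPM, whereas the other 227 cells had 91 among 7685836, or 11.8 CPM (exact interval 9.53 to 14.5). Krt8 stood at 60.1 CPM in the 14 cells and 998 CPM in the other cells. Col1a1 stood at 12600 CPM in the 14 cells and 1500 CPM in the other cells, and Col3a1 at 12400 and 2370 CPM in the same order. The small set thus held much collagen and little keratin, whereas keratin, reporters and a lower collagen level stood together in the other cells.

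**Figure D1:**
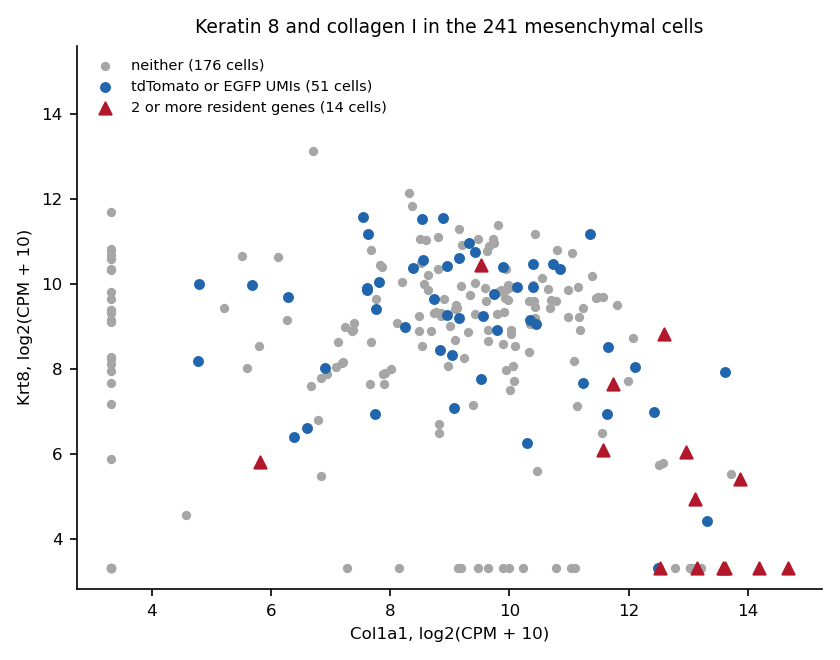
Krt8 against Col1a1 in the 241 mesenchymal cells, both as log2(CPM + 10), with a point per cell; triangles are the 14 cells with UMIs of 2 or more resident fibroblast genes and blue points the 51 cells with a tdTomato or EGFP UMI. Most triangles lie at the lower right, where Col1a1 is high and Krt8 low, and most cells with a reporter UMI lie where both genes are detected.

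Within the 5 tumours that had at least 10 cells of both classes (3 ICB and 2 SD tumours), 3337 genes reached a mean of 50 CPM in either class. Of these, 603 (18.1%) were higher in mesenchymal cells in every tumour and 1082 (32.4%) were lower in every tumour. The median log2 ratio of all 3337 genes was -0.06, on the scale of log2(CPM + 1). The ratios that follow are medians over the 5 tumours, and no test is given because clustering used the same genes.

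Fibroblast identity genes and collagens had the highest median ratios of the lists. Of 14 collagens, 6 were higher in mesenchymal cells in every tumour and none lower, with a median log2 ratio of 1.33. Of 13 fibroblast identity genes, 6 were higher and none lower, with a median of 1.62. Col1a1 had a ratio of 1.62, with 0.09 as its lowest tumour, and Col3a1 2.21, with a lowest tumour of -0.32. Pdgfra, the platelet-derived growth factor receptor of fibroblasts, was at 111, 155 and 69.7 CPM in mesenchymal cells against 36.3, 34 and 26.5 CPM in proliferating cancer cells of the ICB tumours. It was at 83.8 and 39.8 CPM in mesenchymal cells against 16.6 and 17.7 CPM in proliferating cancer cells of SD replicates 1 and 3. Pdgfra and the crosslinking enzyme Lox therefore separated the classes in each tumour (lowest ratios 1.12 and 1.17), which Col3a1, Sparc, Dcn and Acta2 did not.

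Other matrix lists had lower medians. Of 12 genes for collagen processing and crosslinking, 6 were higher in every tumour and none lower, with a median log2 ratio of 0.66. Of 15 matrix glycoproteins and proteoglycans, 6 were higher and none lower, with a median of 0.71. Of 10 matrix proteases and inhibitors, 5 were higher and none lower, with a median of 0.73, among them Mmp3, a protease that cleaves proteoglycans, at 117.19 CPM in mesenchymal cells and 8.91 CPM in proliferating cancer cells. Of 9 growth factors and receptors, 6 were higher and 1 lower, with a median of 1.01. The largest ratio by the naming rule was that of Ogn, a small proteoglycan also known as osteoglycin, at 125.71 CPM in mesenchymal cells and 4.80 CPM in proliferating cancer cells, a median log2 ratio of 5.49. Igfbp7, a secreted binding protein of insulin-like growth factors, followed at 4.13, and Col12a1, a collagen that associates with fibrils, had 2.79.

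Hypoxia genes were the other group with many members higher in mesenchymal cells. Of the 22 glycolysis and hypoxia genes above the level limit, 14 were higher in every tumour and none lower, with a median log2 ratio of 1.01. Adm, a vasodilating peptide induced by low oxygen, stood at 107.61 CPM in mesenchymal cells and 6.36 CPM in proliferating cancer cells, with log2 ratios from 0.69 to 5.68. Ero1l, an oxidase of the endoplasmic reticulum, stood at 463.29 and 93.11 CPM, Bnip3, a mitophagy receptor, at 350.47 and 70.14 CPM, and Car9, a carbonic anhydrase of the cell surface, at 87.64 and 11.30 CPM, each with mesenchymal cells first. All 4 are induced by hypoxia-inducible factors. The sum of the list ran from 10400 to 19100 CPM in ICB and 14200 to 20000 CPM in SD mesenchymal cells, against 8380 to 10300 CPM in ICB and 8920 to 9300 CPM in SD proliferating cancer cells, and in each of the 5 tumours the mesenchymal sum was the higher.

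Proliferation genes were lower in mesenchymal cells, and the name of the cancer class itself rests on them. All 25 proliferation genes were lower in mesenchymal cells in every tumour, with a median log2 ratio of -2.36. Cdk1, the mitotic kinase, stood at 39.04 CPM in mesenchymal cells and 284.04 CPM in proliferating cancer cells. Ccnb1, its cyclin partner, stood at 15.23 and 123.88 CPM, and Cenpf, a centromere protein of dividing cells, at 15.59 and 223.66 CPM, in the same order. Hdac1 and Hdac2, deacetylases found in most cells, were lower in mesenchymal cells in every tumour, with medians over tumours of 49.1 and 62.4 CPM against 72.3 and 101 CPM. Oxct1, which lets a cell burn ketone bodies, had medians of 176 CPM in mesenchymal cells, 230 CPM in proliferating cancer cells and 38.5 CPM in leukocytes. Bdh1, the mitochondrial β-hydroxybutyrate dehydrogenase, had no UMI in mesenchymal cells of these 6 tumours.

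Some groups did not separate the classes. None of 3 prostate epithelium genes above the level limit had a constant sign, with a median log2 ratio of 0.05. For 10 interferon response genes the median was -0.12, with 1 lower in every tumour, and for 12 genes of MHC class I presentation it was 0.16, with 1 higher and 1 lower. The epithelial to mesenchymal factors had a median of 0.13 over 8 genes, with 2 higher. Leukocyte markers moved with the class comparison. Their median log2 ratio was 1.04 over 9 genes, with 1 higher in every tumour and none lower. All 16 summed to 2030, 1610 and 2130 CPM in mesenchymal cells against 765, 2110 and 707 CPM in proliferating cancer cells of ICB tumours, and to 5460 and 7730 CPM against 3380 and 2170 CPM in SD replicates 1 and 3. The mesenchymal sum was thus higher in 4 of 5 tumours, and its part in the ratios of other genes was not tested.

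**Figure D2:**
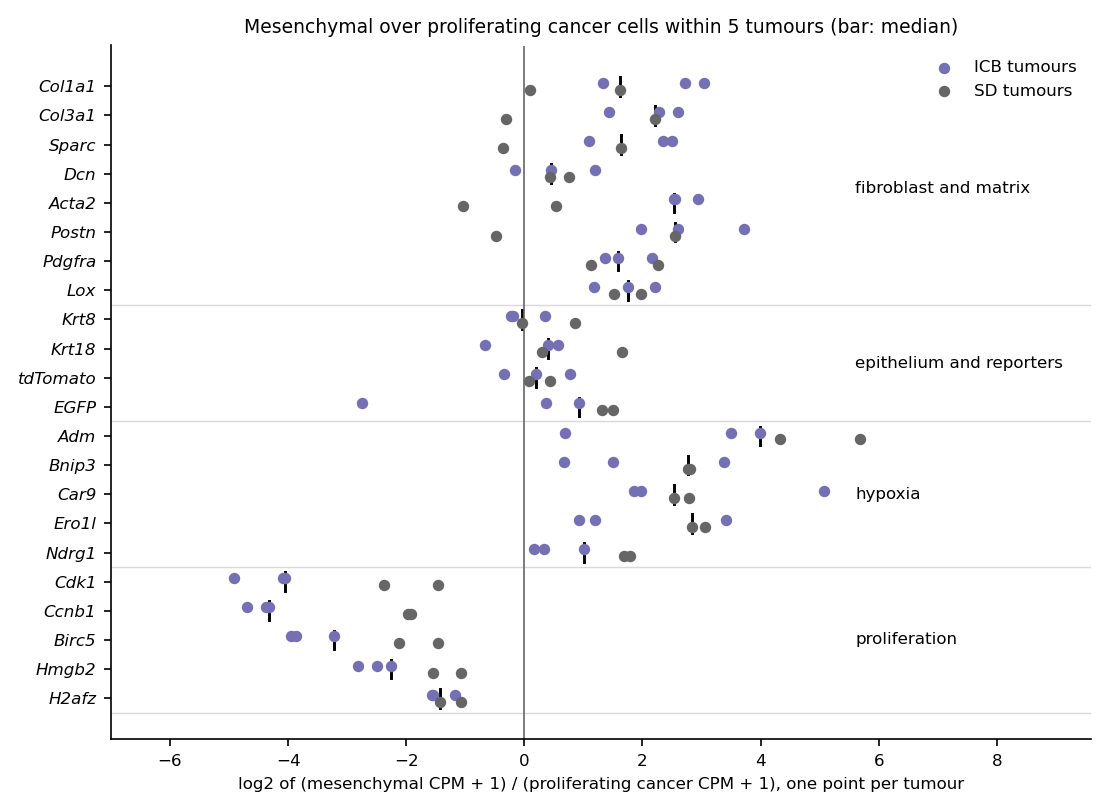
Log2 ratio of mesenchymal to proliferating cancer levels, log2 of (CPM + 1) over (CPM + 1), for genes in 4 groups, with a point for each of 5 tumours (ICB and SD) and a bar at the median. Pdgfra, Lox, Adm and Car9 lie right of 0 in all 5 tumours, Krt8, Krt18 and tdTomato lie around 0, and the proliferation genes lie left of 0 in all 5.

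The share of mesenchymal cells was lower on butanediol in both libraries. They made up 2.64%, 2.86% and 0.855% of cells in BD tumours, against 11.5%, 14% and 10.9% in SD tumours. They made up 0.35%, 1.23% and 1.18% in BD+ICB tumours, against 3.73%, 4.22% and 1.64% in ICB tumours. Groups did not overlap in either library. With no limit on the hashtag total the shares were 27.5%, 16.8% and 26% of droplets in BD tumours, against 52.3%, 41.0% and 51.3% in SD tumours, and 4.45%, 2.69% and 9.54% in BD+ICB tumours, against 15.4%, 14.3% and 7.31% in ICB tumours, where the groups with blockade overlapped. In counts, BD tumours held 8, 2 and 1 mesenchymal cells and SD tumours 48, 39 and 57, and the exact 95% interval of the share in BD replicate 3 ran from 0.0216% to 4.67%. The difference was -10.1 points without blockade and -2.28 points with it (exact permutation, two-sided p = 0.1 each, the smallest that 3 against 3 tumours allow). Over both libraries it was -6.16 points (exact permutation within libraries, two-sided p = 0.005, the smallest possible, adjusted p = 0.095 over 19 classes). With no limit on the hashtag total the differences were -24.8 points without blockade, -6.75 points with it and -15.8 points over both (exact permutation, two-sided p = 0.1, 0.2 and 0.01). Labels name 3 tumours per group but no mice, so a p-value here speaks only of the spread among the tumours sampled.

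The mesenchymal share was also taken within the 2 tumour classes alone. Of the cells of both classes, mesenchymal cells made up 80.0%, 100% and 100% in BD tumours, against 72.7%, 81.2% and 81.4% in SD tumours. They made up 14.3%, 42.1% and 50.0% in BD+ICB tumours, against 46.3%, 60% and 46.9% in ICB tumours. These groups overlapped in both libraries. BD tumours held 2 proliferating cancer cells in all, so their values rest on few cells. The diet difference was 14.9 points without blockade and -15.6 points with it, and -0.36 points over both libraries (exact permutation, two-sided p = 0.3, 0.3 and 0.975). With no limit on the hashtag total, which kept 309 mesenchymal droplets in BD and 1447 in SD tumours, it was -3.68 points without blockade and -18.5 points with it, and -11.1 over both (exact permutation, two-sided p = 0.4, 0.1 and 0.02).

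**Figure D3:**
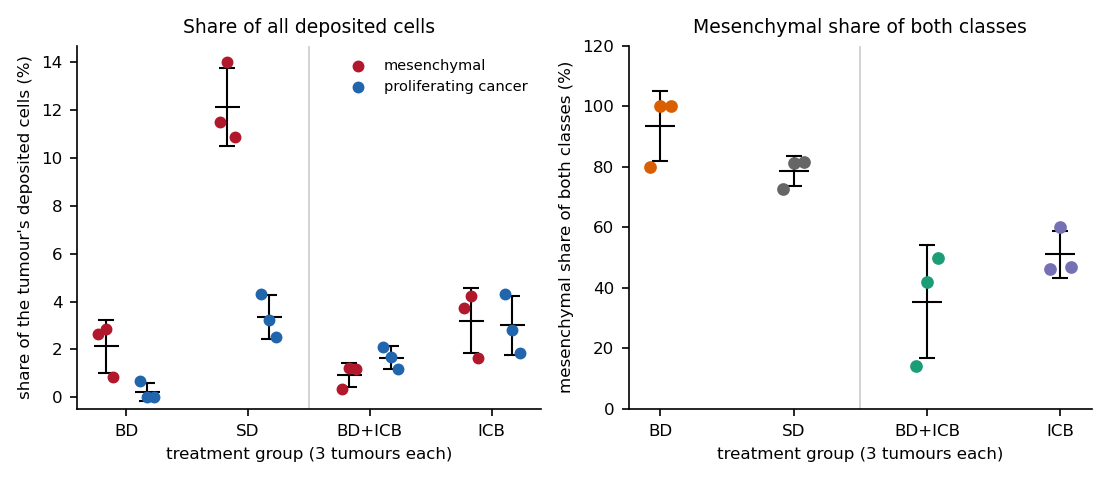
Left, mesenchymal and proliferating cancer cells as a percent of the deposited cells of each tumour; right, mesenchymal cells as a percent of both classes; points are tumours, lines are the mean and standard deviation of 3 tumours. Mesenchymal shares of BD tumours (0.855% to 2.86%) lie below those of SD tumours (10.9% to 14%), whereas the shares of both classes on the right overlap between the diets.

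The mesenchymal cells of ICB and SD tumours were compared gene by gene, since only these groups had at least 10 such cells per tumour. Over 8247 genes, 162 (1.96%) were higher and 204 (2.47%) lower in ICB tumours at an adjusted p under 0.05 (edgeR's quasi-likelihood test, Benjamini-Hochberg adjustment), and 1554 (18.8%) had an unadjusted p under 0.05. The count of 366 fell to 219 without SD replicate 1, 89 without SD replicate 2, 166 without SD replicate 3 and 138 without ICB replicate 2. Blockade cannot be told apart from the library, and the depth of the cells differed with it.

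Leukocyte transcripts moved with the comparison. The 16 leukocyte markers took a median of 0.0612% of the UMIs of a mesenchymal cell in ICB tumours and 0.868% in SD tumours. Summed over cells they stood at 2030, 1610 and 2130 CPM in ICB tumours, against 5460, 8220 and 7730 CPM in SD tumours, without overlap. Every ICB tumour was below every SD tumour for 7.95% of all genes tested. Of 13 tested markers, 3 fell in ICB tumours (edgeR, as above) with a median log2 fold of -2.08, namely Fcer1g and Tyrobp, adaptors of myeloid receptors, and Csf1r, the receptor of macrophage colony-stimulating factor. DESeq2 called 6 of the 13 as lower. With no limit on the hashtag total none of 14 passed in edgeR, at a median log2 fold of -2.42. The sums there were 527, 481 and 656 CPM in ICB tumours, against 2600, 4360 and 2970 CPM in SD tumours. In the deposited cells Cd72, a receptor of B cells and myeloid cells, and Lcp1, an actin bundler of leukocytes, fell too. Fcer1g was at 113, 97.4 and 138 CPM in ICB tumours, against 521, 494 and 358 CPM in SD tumours (log2 fold -2.11 ± 0.18, standard error, adjusted p = 0.000169, edgeR). The part of these transcripts in the other differences was not tested. Counts below are also given for the cells with under 1% of leukocyte UMIs, a limit set after the values were seen, where 225 genes were called. That limit did not remove the difference, since 4 of 12 leukocyte markers still fell there, at a median log2 fold of -1.7 (edgeR). Leukocyte markers took 0.119%, 0.16% and 0.12% of summed UMIs in ICB tumours there, against 0.28%, 0.424% and 0.263% in SD tumours. Counts from these cells therefore cannot set the leukocyte transcripts aside.

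**Figure D4:**
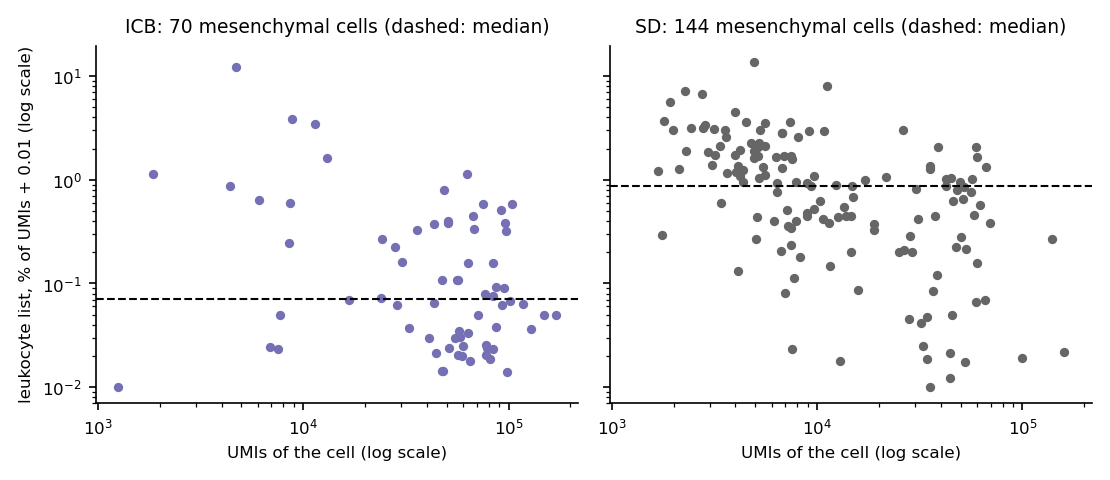
Leukocyte markers as percent of UMIs (plus 0.01, log scale) against the UMIs of each mesenchymal cell (log scale) in ICB and SD tumours, with a point per cell and a dashed line at the median. Points of SD tumours lie mostly above those of ICB tumours, and cells with few UMIs lie highest in both.

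MHC class I presentation rose in mesenchymal cells of ICB tumours. Of 17 genes, 14 rose and none fell, with a median log2 fold of 1.52, against 0.01 over all genes tested. With the cells under 1% of leukocyte UMIs it was again 14 of 17, and over fits that left out a tumour it was 9 (without SD replicate 2) to 14. With no limit on the hashtag total it was 7 of 17, at a median log2 fold of 1.48. B2m, the light chain of MHC class I, stood at 3720, 2860 and 2910 CPM in ICB tumours, against 1260, 1410 and 1070 CPM in SD tumours (log2 fold 1.22 ± 0.15, adjusted p = 0.000706, edgeR). Tap1, which pumps peptides into the endoplasmic reticulum, stood at 61.1, 47.7 and 77.8 CPM in ICB tumours, against 18.3, 17.6 and 11.6 CPM in SD tumours (1.83 ± 0.28, adjusted p = 0.00296). Groups did not overlap for either gene. The heavy chain H2-K1 stood at 1530, 1190 and 1190 CPM in ICB tumours, against 440, 421 and 214 CPM in SD tumours (1.75 ± 0.28, adjusted p = 0.0197). Its call ended without SD replicate 2, ICB replicate 2 or ICB replicate 3 (adjusted p = 0.0541, 0.0592 and 0.0889, edgeR), with log2 folds of 1.9, 1.83 and 1.81. It also ended in cells of at least 20000 UMIs, which left out ICB replicate 3 (log2 fold 1.92, adjusted p = 0.149, edgeR). With no limit on the hashtag total neither H2-K1 nor B2m passed (log2 folds 1.48 and 1.05, adjusted p = 0.15 and 0.0783, edgeR). H2-K1 and related heavy chains share sequence, so reads may be split between them.

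Interferon response genes rose with them. Of 23 genes, 13 rose and none fell, with a median log2 fold of 1.57. In cells under 1% of leukocyte UMIs it was 10 of 20. It was 4 of 24 without SD replicate 2, 6 of 24 without SD replicate 3, 8 of 24 without SD replicate 1 and 8 of 23 without ICB replicate 2. Gbp3, a guanylate-binding protein induced by interferon, stood at 61.1, 56.2 and 84.3 CPM in ICB tumours, against 10.5, 9.5 and 5.8 CPM in SD tumours (log2 fold 2.82 ± 0.3, adjusted p = 0.000382, edgeR). Zbp1, a sensor of Z-form nucleic acid, stood at 115, 94.1 and 98.8 CPM in ICB tumours, against 23.6, 20.4 and 11.6 CPM in SD tumours (2.37 ± 0.25, adjusted p = 0.000382). In both genes the lowest ICB tumour was above the highest SD tumour, as it was for 17.8% of all genes tested.

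**Figure D5:**
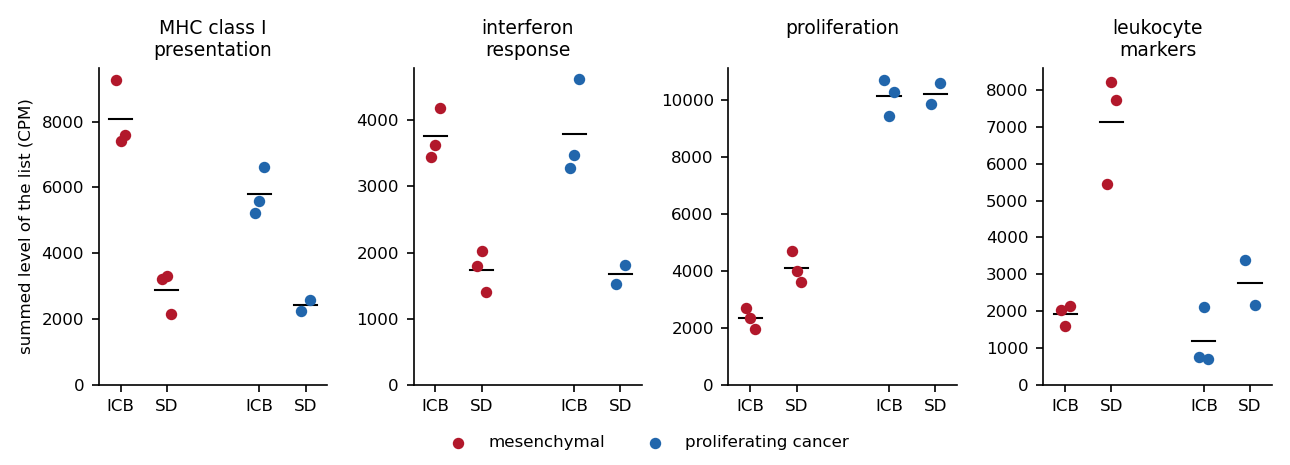
Summed CPM of 4 gene lists in mesenchymal and proliferating cancer cells, with a point per tumour and a line at the mean, ICB left of SD. MHC class I and interferon sums are higher in ICB than in SD tumours in both classes, whereas the proliferation sum is lower in ICB tumours in mesenchymal cells (1980 to 2710 against 3630 to 4720 CPM) and alike in proliferating cancer cells.

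Proliferation genes fell in mesenchymal cells of ICB tumours. Of 25 genes, 10 fell and none rose, with a median log2 fold of -1.27, and in cells under 1% of leukocyte UMIs it was again 10 of 25. Ccnb1 stood at 3.82, 3.92 and 6.48 CPM in ICB tumours, against 27.9, 39.4 and 34 CPM in SD tumours (log2 fold -3.04 ± 0.33, adjusted p = 0.000382, edgeR). Cdk1 stood at 16.9, 7.19 and 17.8 CPM in ICB tumours, against 97.8, 65.2 and 55.5 CPM in SD tumours (-2.55 ± 0.33, adjusted p = 0.00247). Birc5, a survival and mitosis protein, and Hmgb2, a chromatin protein of dividing cells, fell too. With no limit on the hashtag total 8 of 25 genes fell. There Ccnb1 and Hmgb2 did not pass (log2 folds -1.37 and -0.98, adjusted p = 0.185 and 0.106, edgeR). With cells of at least 20000 UMIs, 4 of 25 genes fell. That depth limit was set after the values were seen and also left out ICB replicate 3, with 8 such cells. Over fits that left out a tumour, 7 to 14 genes fell. The name of the proliferating cancer class rests on these genes, so their level in mesenchymal cells depends on where the classes were divided. Mesenchymal cells averaged 51.0% of both classes in ICB tumours and 78.5% in SD tumours. The part of this division in the fall was not tested.

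Secreted factors gave a further group. Of 14 inflammatory fibroblast genes, 4 rose (Lif, Cxcl1, Ptgs2 and Has2) and none fell, with a median log2 fold of 0.82. Lif, a cytokine of the interleukin 6 family, stood at 51.3, 98.0 and 77.8 CPM in ICB tumours, against 21.8, 12.2 and 19.1 CPM in SD tumours (1.92 ± 0.28, adjusted p = 0.00296, edgeR). Ptgs2, the inducible prostaglandin synthase, stood at 664, 652 and 556 CPM in ICB tumours, against 264, 282 and 342 CPM in SD tumours (0.96 ± 0.14, adjusted p = 0.00296). Grem1, a secreted antagonist of bone morphogenetic proteins, stood at 225, 263 and 316 CPM in ICB tumours, against 55, 100 and 76.2 CPM in SD tumours (1.68 ± 0.22, adjusted p = 0.00247). Il1rl1, the receptor of interleukin 33, stood at 353, 475 and 457 CPM in ICB tumours, against 168, 157 and 125 CPM in SD tumours (1.39 ± 0.16, adjusted p = 0.000508). Each of these 4 genes was higher in every ICB tumour than in any SD tumour, and with no limit on the hashtag total none of them passed, at log2 folds of 1.41, 0.97, 1.5 and 1.74 (adjusted p = 0.2, 0.122, 0.207 and 0.12, edgeR). Jun, Egr1 and Btg2, immediate early genes that also respond to dissociation, rose as well, as 3 of 20 genes of that list.

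Few matrix genes passed. Of 16 collagens 0 did in edgeR and 1 in DESeq2, with 3 at an unadjusted p under 0.05 and a median log2 fold of 0.54. Col1a1 stood at 3010, 3010 and 1390 CPM in ICB tumours, against 1930, 873 and 789 CPM in SD tumours (0.93 ± 0.51, adjusted p = 0.432, edgeR). The groups overlapped. Thbs2 and Tnc, glycoproteins of remodelled matrix, rose, with 2 of 17 members of their list. Thbs2 stood at 270, 303 and 212 CPM in ICB tumours, against 124, 114 and 107 CPM in SD tumours (1.07 ± 0.15, adjusted p = 0.00247, edgeR). In cells under 1% of leukocyte UMIs its adjusted p was 0.0582 (edgeR). It also did not pass with the stricter hashtag rule given below (adjusted p = 0.0793) or with no limit on the hashtag total (adjusted p = 0.0595, edgeR). Krt18, the partner of Krt8, stood at 181, 75.8 and 47.0 CPM in ICB tumours, against 244, 280 and 197 CPM in SD tumours (-1.29 ± 0.52, adjusted p = 0.28), and passed without ICB replicate 1 (log2 fold -2.03, adjusted p = 0.000188, edgeR). Of 23 glycolysis and hypoxia genes 0 passed in edgeR and 3 in DESeq2, with 4 at an unadjusted p under 0.05. Of 9 ketone body genes and 9 histone deacetylases 0 passed by either tool, with 2 ketone body genes and 0 deacetylases at an unadjusted p under 0.05.

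The fit of proliferating cancer cells did not use the same tumours as that of mesenchymal cells. It left out SD replicate 2, with 9 such cells, and BD+ICB replicates 1 and 2 entered it, so the counts are not directly comparable. In it, 35 of 9652 genes (0.363%) rose and 17 (0.176%) fell in ICB against SD tumours (edgeR, adjusted p under 0.05), and 998 (10.3%) had an unadjusted p under 0.05. Of the MHC class I list 9 of 17 genes rose there, and of the interferon list 3 of 24. Whether the effect differed between the classes was tested as an interaction with the tumour as a block. Of 9646 genes, 3 (0.0311%) had a larger and 20 (0.207%) a smaller log2 fold in mesenchymal cells. No gene of the MHC class I or interferon lists was among them, with 751 genes (7.79%) at an unadjusted p under 0.05. Proliferation genes were among them. The name of the cancer class rests on these genes, so its cells hold high levels of them in either group. For these genes the interaction therefore describes the classes as drawn and cannot show whether blockade acts differently on them. Ccnb1 had a log2 fold of -3.04 in mesenchymal and 0.01 in proliferating cancer cells, each from a fit of its own class, and the interaction over 5 tumours gave a difference of -2.92 ± 0.34 (adjusted p = 0.0021). Cdk1 differed by -2.63 ± 0.35 (adjusted p = 0.00812). Ogn was at 187, 231 and 123 CPM in mesenchymal cells of ICB tumours, against 61.1, 23.1 and 26.5 CPM in those of SD tumours, and differed by 4.05 ± 0.59 (adjusted p = 0.00929). Its log2 fold was 2.16 in mesenchymal cells and -2.22 in proliferating cancer cells (adjusted p = 0.281, edgeR), where it averaged only 4.80 CPM.

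For diet, droplets with no limit on the hashtag total had to be used, since BD and BD+ICB tumours held 1 to 8 deposited mesenchymal cells each. Classes were carried over from the deposited cells to the other droplets, while deposited cells kept their own class. Tried on the deposited cells, this returned the class of 208 of the 241 mesenchymal cells (86.3%), with 15 sent to proliferating cancer cells. It gave 212, 30 and 67 mesenchymal droplets in BD tumours against 608, 229 and 610 in SD tumours, and 38, 22 and 70 in BD+ICB tumours against 193, 95 and 75 in ICB tumours. 

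No gene passed for diet in edgeR. Between BD and SD tumours, 0 of 10896 genes were called by edgeR (0.0%) and 0 by DESeq2, and 287 (2.63%) had an unadjusted p under 0.05. Between BD+ICB and ICB tumours, edgeR called 0 (0.0%), DESeq2 called 37, and 803 genes (7.37%) had an unadjusted p under 0.05. Over both libraries edgeR called 0 (0.0%), DESeq2 called 5, and 502 genes (4.61%) had an unadjusted p under 0.05. The diet effect with blockade minus that without it passed for 0 genes in edgeR (0.0%) and 3 in DESeq2, with 539 (4.95%) at an unadjusted p under 0.05. The genes with the smallest p are given as values. Timp1, an inhibitor of matrix proteases, stood at 728, 507 and 714 CPM in BD tumours, against 421, 410 and 468 CPM in SD tumours (log2 fold 0.6 ± 0.14, adjusted p = 1.0, edgeR). Its groups did not overlap, and in droplets whose 15 neighbours were all mesenchymal it passed, at a log2 fold of 1.21 (adjusted p = 0.0292, edgeR).

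With blockade, the genes with the smallest p included matrix and transport genes. Vcan, a large proteoglycan, stood at 364, 411 and 400 CPM in BD+ICB tumours, against 630, 783 and 688 CPM in ICB tumours (-0.8 ± 0.16, adjusted p = 0.141, edgeR). Mme, a membrane peptidase, stood at 13.6, 44.2 and 38.1 CPM in BD+ICB tumours, against 128, 188 and 196 CPM in ICB tumours (-2.38 ± 0.4, adjusted p = 0.151). Slc16a3, a transporter that exports lactate, stood at 185, 126 and 173 CPM in BD+ICB tumours, against 92.3, 80.6 and 75.6 CPM in ICB tumours (1.0 ± 0.18, adjusted p = 0.141). Groups did not overlap for these genes. Ifitm1, an interferon-induced membrane protein, was at 109, 212 and 93.4 CPM in BD+ICB and 20.7, 34.9 and 14.4 CPM in ICB tumours, whereas BD tumours had 63.8 to 105 CPM and SD tumours 86.9 to 119 CPM. The leukocyte markers summed to 767, 4620 and 523 CPM in BD+ICB tumours, against 527, 481 and 656 CPM in ICB tumours, and their part in these values was not tested. In DESeq2 these 4 genes passed, with adjusted p = 0.00387 for Vcan, 1.68e-08 for Mme, 0.00132 for Slc16a3 and 3.8e-09 for Ifitm1, and Vcan and Slc16a3 also passed in edgeR with no filter on low counts (adjusted p = 0.0178 each).

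Markers and ketone genes gave no call for diet. Col1a1 stood at 1910, 808 and 2280 CPM in BD tumours against 1420, 1300 and 1420 CPM in SD tumours, and at 5750, 3730 and 1310 CPM in BD+ICB tumours against 1430, 2370 and 2500 CPM in ICB tumours. Krt8 stood at 1100, 1020 and 491 CPM in BD tumours against 939, 662 and 970 CPM in SD tumours, and at 1010, 1200 and 1320 CPM in BD+ICB tumours against 1340, 670 and 1860 CPM in ICB tumours. Both overlapped between the diets in each library. Oxct1 stood at 179, 214 and 155 CPM in BD tumours against 199, 197 and 188 CPM in SD tumours, and at 165, 139 and 190 CPM in BD+ICB tumours against 158, 152 and 170 CPM in ICB tumours. H2-K1 stood at 769, 113 and 408 CPM in BD tumours against 358, 322 and 196 CPM in SD tumours, and at 1040, 909 and 1170 CPM in BD+ICB tumours against 1090, 757 and 691 CPM in ICB tumours. Over both libraries the log2 fold of H2-K1 was 0.46 ± 0.36 (adjusted p = 1.0, edgeR), and the median over the 17 MHC class I genes was 0.38, against 0.00 over all genes.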

How the data were processed

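The deposited matrices hold UMI counts by gene and droplet. Their file headers name Cell Ranger 6.1.1, and the mm10 build and R 4.1 are named in the submitters' processing notes. The authors' deposited table of cells gives each cell's class, tumour and treatment and, per the file headers, a percent of mitochondrial counts; no source used here gives the clustering settings or the hashtag counting tool. The members and lists were chosen with earlier results of these data known. Counts were summed per tumour over mesenchymal cells (at least 10 per tumour) and tested with edgeR 4.0.16 (quasi-likelihood, TMM, filterByExpr) in R 4.3.3, with Benjamini-Hochberg adjustment over all genes tested. DESeq2 1.42.0 was an alternative. Calls used an adjusted p of 0.05, and levels are CPM. The study's cells have at least 500 hashtag counts. For diet, droplets with no such limit were used (under 5% mitochondrial counts, at least 250 genes). They met a stricter rule, with at least 10 counts of the leading hashtag and 3 times those of the next. Deposited cells among them kept their class. The others took the class of their 15 nearest deposited cells, on 30 components of 2000 variable genes. The highest hashtag gave the tumour. No doublet caller was run, and the stricter rule left 196 of the deposited mesenchymal cells. Shares were tested by exact permutation of diet labels within libraries. Against proliferating cancer cells, log2 ratios used a pseudocount of 1 CPM. On simulated counts for 8247 genes the ICB against SD fit recovered 75% of 2-fold and 99% of 4-fold changes. The diet fit over both libraries, on 10896 genes, recovered 95% and 98%. The 200 changed genes were drawn from those above the median level, and all tumours had the same base profile. These shares therefore do not give the power for less abundant genes or for tumours with other differences. Named genes were up to 10 each way with the smallest adjusted p per comparison (5 each way by p where none passed), the 10 largest ratios each way against proliferating cancer cells, the most abundant genes and up to 4 highest members per list. Other genes named for a role were chosen after their values were seen. Aldoa, Ctgf, Leprel2 and Pla2g2a had no match by symbol. Some genes are not reported here.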

Additional observations from a re-analysis of the deposited data

Results flagged for a closer look

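For 23 genes the effect of ICB against SD differed between mesenchymal and proliferating cancer cells, by the class by treatment term of an edgeR quasi-likelihood fit with the tumour as a block over 5 tumours. Values are the difference of the log2 folds, mesenchymal minus proliferating cancer cells, from that fit, with its standard error. Log2 folds given for a single class come from a fit of that class alone, with 6 tumours for mesenchymal cells, so they do not subtract exactly to the difference. Blockade cannot be told apart from the library in either class.

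Most were genes of dividing cells with a lower value in mesenchymal cells. The mitotic genes Ccnb1 (-2.92 ± 0.34), Cdk1 (-2.63 ± 0.35), Birc5 (-1.99 ± 0.28), Prc1 (-2.45 ± 0.31), Aurkb (-3.1 ± 0.57), Pbk (-3.61 ± 0.53) and Racgap1 (-1.7 ± 0.32) were among them. The replication genes Tk1 (-2.65 ± 0.37) and Mcm5 (-2.15 ± 0.39) and the chromatin gene Hmgb2 (-1.34 ± 0.23) also differed. Cdk1 had a log2 fold of -2.55 in mesenchymal cells and 0.0 in proliferating cancer cells, and Tk1 -2.69 and -0.02 in the same order. The cancer class is named for such genes, so its cells hold high levels of them in either group. For these genes and the histone genes below, the term therefore describes the classes as drawn.

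Replication-dependent histone genes formed the next group. The differences were -2.82 for Hist1h2ap, -4.76 for Hist1h3f, -3.12 for Hist1h2ae, -2.68 for Hist1h4d, -2.82 for Hist1h1e, -3.83 for Hist1h3c and -3.61 for Hist1h2ab. These genes have near-identical copies, so their counts are uncertain.

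The remaining genes have varied roles. Ogn differed by 4.05 ± 0.59 and Igfbp7 by 4.59 ± 0.7, both secreted proteins. For Ogn the log2 fold was 2.16 in mesenchymal cells and -2.22 in proliferating cancer cells, where it averaged only 4.80 CPM. In mesenchymal cells alone Igfbp7 did not pass (log2 fold 1.58, adjusted p = 0.528, edgeR), with 385, 112 and 24.3 CPM in ICB tumours and 86.4, 48.9 and 33.1 CPM in SD tumours, and in proliferating cancer cells it was at most 1.59 CPM in ICB tumours, against 13.9 and 2.21 CPM in SD tumours. Cd36, a fatty acid receptor, differed by 9.21 ± 1.39, but its mesenchymal level rests on ICB replicate 3, with 0.545, 0.0 and 107 CPM in ICB tumours. The cytoskeletal actin Actg1 differed by -1.19 ± 0.2 and Spata7 by -1.6 ± 0.3. Ndrg1, a hypoxia-induced gene, differed by -1.36 ± 0.24, with a log2 fold of -0.1 in mesenchymal cells (adjusted p = 0.885, edgeR) and 0.96 in proliferating cancer cells (adjusted p = 0.0101, edgeR).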

How the results depend on the processing

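The diet difference in the mesenchymal share of all cells was negative in every alternative run. It was -5.7 to -6.55 points when a tumour was left out, -15.8 points with no hashtag limit and -10.3 points among cells other than neutrophils, and with replicate numbers as blocks p was 0.0312 over both libraries (exact permutation, the smallest possible). In edgeR on cells per class the BD against SD difference was -2.49 on the log2 scale (adjusted p = 0.0357), and that of BD+ICB against ICB -1.75 (adjusted p = 0.1242). The mesenchymal share of both classes, -0.36 points for diet, became -11.1 with no hashtag limit and ran from -3.99 to 4.93 when a tumour was left out (2.97 without BD replicate 1, 0.336 without SD replicate 2, 0.38 without SD replicate 3, 1.88 without ICB replicate 2, 4.93 without BD+ICB replicate 1). For BD against SD it turned to -3.68 points with no hashtag limit.

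The 366 genes called for ICB against SD became 854 with no filter on low counts, 160 with at least 5 cells, 225 in cells under 1% of leukocyte UMIs (chosen after seeing the data) and 89 to 459 without a tumour. DESeq2 called 295. With no hashtag limit there were 399, of which 101 were shared with the 366. Of the 20 genes named by their adjusted p, 12 no longer passed there. Same-numbered ICB and SD tumours deviated together with r = 0.162, 0.0224 and 0.182, against -0.166 to 0.0421 for the other pairs. Both groups carried hashtags 3, 4 and 5, and whether the numbers pair the tumours was not tested. The replicate block gave 496 calls. Under it 5 of 16 collagens rose, against 0 without it, with Col1a1, Col1a2 and Col3a1 at adjusted p = 0.0448, 0.0198 and 0.0465 (edgeR), and 4 of 16 fibroblast identity genes rose. For BD against SD, only Timp1 passed where all 15 neighbours were mesenchymal. For BD+ICB against ICB the calls were 37 by DESeq2, 13 with no filter, 2 with the replicate block (Ifitm1 at adjusted p = 0.0149, edgeR) and 0 to 47 without a tumour (47 without BD+ICB replicate 3, 1 without ICB replicate 3). For diet over both libraries they were 5 by DESeq2 and 0 to 1 without a tumour (BD replicate 1). For the difference of the diet effects, added after seeing the data, they were 3 by DESeq2 and 6 with all 15 neighbours. The 23 genes differing between the classes became 40 with at least 5 cells and 159 with no filter. The cause of these changes was not tested. The diet sums rest on 22 to 608 mesenchymal droplets per tumour.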

Other observations

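Genes by which mesenchymal cells could act on leukocytes were measured in them as well. Cxcl12, a chemokine that holds leukocytes in stroma, stood at 289, 516 and 439 CPM in ICB tumours, against 329, 223 and 161 CPM in SD tumours. Ccl2, which draws monocytes, stood at 387, 1200 and 949 CPM in ICB tumours, against 316, 554 and 222 CPM in SD tumours. The groups overlapped for both genes. Cd274, the ligand of PD-1, stood at 20.2, 17 and 30.8 CPM in ICB tumours, against 5.24, 12.2 and 25.7 CPM in SD tumours, and at 53.3 to 285 CPM in leukocytes. Vegfa, a growth factor for vessels, stood at 295, 254 and 159 CPM in ICB tumours, against 171, 193 and 223 CPM in SD tumours.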
